A study of Canis lupus familiaris with 6 samples.

Results

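The genes described here set how fast pyruvate enters mitochondrial oxidation: the pyruvate dehydrogenase kinases PDK1, PDK2, PDK3 and PDK4, the phosphatases PDP1 and PDP2, the subunits PDHA1 and PDHB of the pyruvate dehydrogenase complex, and the mitochondrial pyruvate carrier subunits MPC1 and MPC2. They were chosen by name, and 8 of the 10 matched a gene symbol among the 29822 annotated genes. PDHB and MPC1 matched no symbol and were not analysed here. RNA was sequenced from CMM10, an established canine malignant melanoma cell line, in 3 libraries of cells under hypoxia and 3 of cells under normoxia. No allele, drug or further treatment is named in the labels. All libraries come from this 1 line, and neither the oxygen level nor the duration is given. The labels do not say that the libraries of a condition came from separate cultures, so the p-values measure the spread between libraries, which may be technical.

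Pyruvate made by glycolysis crosses the inner mitochondrial membrane through a carrier built of MPC1 and MPC2. Inside, the pyruvate dehydrogenase complex turns it into acetyl-CoA. The E1 enzyme of the complex, made of PDHA1 and PDHB chains, is switched off when a PDK kinase phosphorylates PDHA1 and switched on again when a PDP phosphatase removes the phosphate. In mammalian cells PDK1 is a textbook target of the hypoxia-inducible factor HIF-1, and its rise in low oxygen is known as a means of diverting pyruvate from oxidation to lactate. The measurements here are RNA levels and say nothing of phosphorylation or flux.

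Reads assigned to genes numbered 27272709 to 28804337 in the hypoxia libraries and 23196647 to 27012866 in the normoxia libraries. Mitochondrially encoded reads were 3.21% to 3.33% of gene reads under hypoxia and 4.51% to 4.62% under normoxia. Of the markers of the melanocyte lineage, SOX10 was at 72.2 ± 9.59 TPM under hypoxia and 54.5 ± 4.86 TPM under normoxia (SD, n = 3 each) and was called higher. DCT was at 44.8 ± 2.47 TPM under hypoxia and 52.9 ± 3.17 TPM under normoxia and was called lower, so the lineage markers moved in both directions. MITF, at 23.5 ± 1.36 TPM under hypoxia and 24.5 ± 0.86 TPM under normoxia, did not pass, nor did RAB38, PMEL, MLANA, S100B and GPR143, the last 4 of them averaging between 0.65 and 1.95 TPM. The pigment genes TYR and TYRP1 were below the count filter, and TYR was listed at 0 TPM in every library. Markers of other cell types were not all absent. The 4 epithelial markers with a symbol summed to 1145 to 1292 TPM under hypoxia and 449 to 468 TPM under normoxia. KRT14 was at 949 ± 84.3 TPM under hypoxia and 193 ± 2.87 TPM under normoxia, and EPCAM and CDH1 held most of the rest. KRT14 and CDH1 were called higher and EPCAM lower, and KRT18 did not pass, so these markers too moved in both directions. Most of the rise of the sum lay in KRT14. The KRT14 model spans 109520 bp with 36 exons and overlaps KRT9 (4 reads over all libraries), so its value may hold reads of other genes. The 6 fibroblast markers summed to 3071 to 3160 TPM under hypoxia and 2363 to 2500 TPM under normoxia, most of it from COL1A2. THY1 averaged 235 TPM under hypoxia and 190 TPM under normoxia, and COL1A1 145 and 122 TPM. DCN and PDGFRA averaged 2.99 TPM or less and LUM was below the count filter. Of the 5 tested fibroblast markers 4 were called higher and 0 lower, beside 24.5% higher and 24.4% lower among all genes tested, and DCN did not pass. The 5 leukocyte markers summed to 486 to 519 TPM under hypoxia and 494 to 523 TPM under normoxia, nearly all from CD79A, while the common leukocyte antigen PTPRC was under 1 TPM and CD3E was listed at 0. The 5 endothelial markers summed to 5.99 to 6.33 TPM under hypoxia and 3.65 to 4.63 TPM under normoxia, and PECAM1 was below the count filter. The epithelial, fibroblast and endothelial sums and the mitochondrial share moved with the condition, and their part in the results below was not tested. In bulk RNA, fewer cells of a type and less RNA per cell cannot be told apart.

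Under hypoxia the kinase PDK1 rose 8.88-fold and PDK3 1.54-fold, the phosphatase PDP1 rose by 21.4% and the kinase PDK2 by 8.83%. The substrate subunit PDHA1 fell by 14.9% and the carrier subunit MPC2 by 16.9%. PDK4 and PDP2 did not pass the test. The comparison asks which metabolic genes these tumour cells express differently in low oxygen. It was made with edgeR's quasi-likelihood test on reads per gene, with p-values adjusted by the Benjamini-Hochberg method over all 15397 genes tested and a call at an adjusted p below 0.05. All 8 measured genes passed the filter on low counts. Of them 4 were called higher and 2 lower. Among all genes tested 49% were called, 24.5% higher and 24.4% lower, so a call by itself is common in this comparison, and the sizes of the changes carry more. With libraries scaled by size alone, 38.8% of all calls were higher, against 50.1% with the scaling used here. The median log2 change of the 8 genes was 0.20, beside 0.00096 over all genes tested. Without regard to sign, the median log2 change over all genes tested was 0.23. PDHA1 (-0.23), MPC2 (-0.27) and PDP1 (0.28) were thus near the typical size, and PDK2 (0.12) and PDP2 (-0.15) below it.

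**Figure D1:**
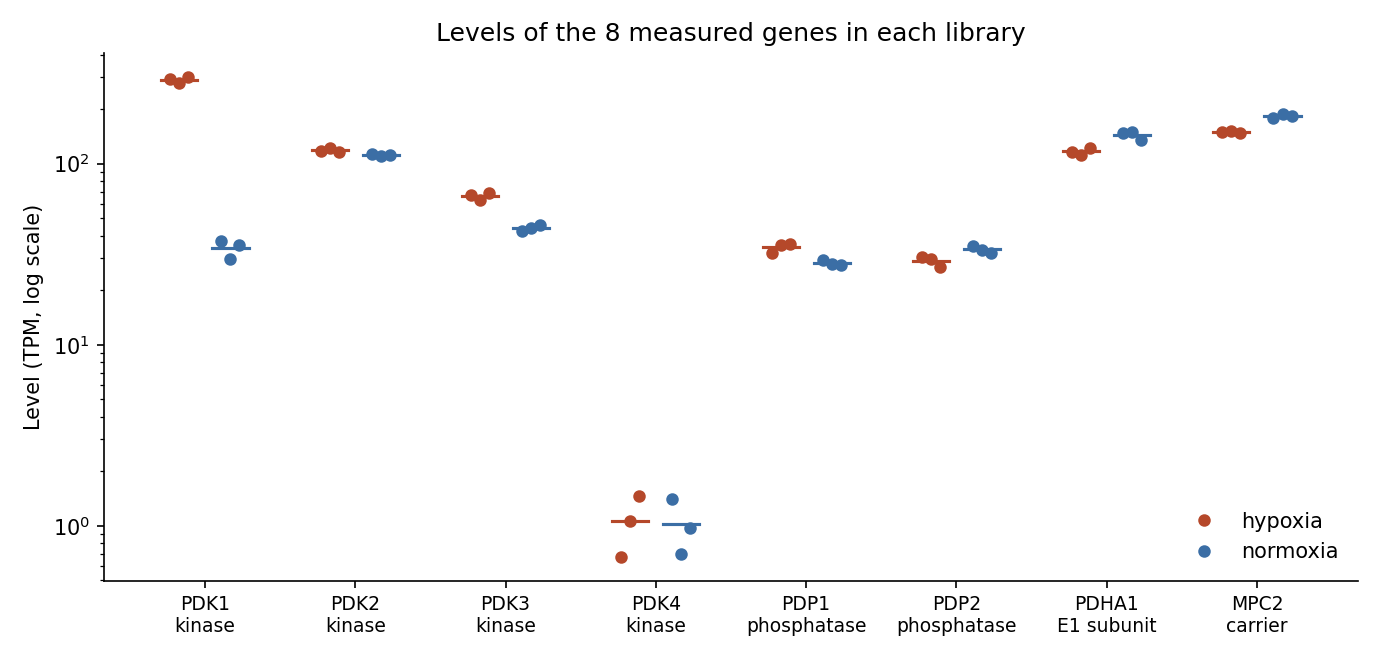
Level of each measured gene in each library in TPM, on a log scale. Points are single libraries, hypoxia left of normoxia for each gene, and horizontal lines are group means of 3 libraries. PDK1 stands at 278 to 301 TPM under hypoxia and 29.6 to 37.3 TPM under normoxia, while the group means of every other gene lie within a factor of 2 of each other.

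PDK1, on chromosome 36 (ENSCAFG00000013060, 16918058 to 16944620, forward strand, CanFam3.1), is the kinase with the strongest known link to oxygen. Levels here are the deposited TPM, a transcript abundance that takes account of exon length and can be compared between genes. PDK1 was at 293, 278 and 301 TPM in the 3 hypoxia libraries, against 37.3, 29.6 and 35.6 TPM in the normoxia libraries. Every hypoxia library thus lay far above every normoxia library, and normoxia replicate 2 was the lowest of all. The log2 fold change of hypoxia over normoxia was 3.15 ± 0.094 (SE; edgeR's quasi-likelihood test, adjusted p = 1.84e-07), with a 95% interval of 2.92 to 3.38. By log2 fold change PDK1 ranked 46 among the 15397 genes tested. It rested on 25595 reads under hypoxia and 2714 under normoxia. Of its exon reads 6.30% mapped to more than 1 place, and from uniquely mapped reads alone the log2 change was 3.15.

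PDK3, an X-linked kinase (ENSCAFG00000013476, chromosome X, 19994393 to 20058485, forward strand), had the next largest change. It was at 67.1, 62.9 and 68.8 TPM under hypoxia, against 42.3, 43.9 and 46.0 TPM under normoxia. The groups were apart by several times the spread within either. Its log2 fold change was 0.62 ± 0.055 (adjusted p = 3.14e-11, edgeR).

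PDK2, on chromosome 9 (ENSCAFG00000016967, 26100343 to 26115423, forward strand), is a widely expressed kinase of the family. It was at 118, 123 and 116 TPM under hypoxia, against 114, 111 and 112 TPM under normoxia. The groups did not overlap but lay close together, and the log2 fold change of 0.12 ± 0.042 passed the test by a small margin (adjusted p = 0.0173, edgeR). The call was lost when libraries were scaled by size alone (0.056, adjusted p = 0.281, edgeR), in limma on log2(TPM + 1) (0.084, adjusted p = 0.0873), without hypoxia replicate 2 (adjusted p = 0.0573, edgeR) and without normoxia replicate 3 (adjusted p = 0.0700, edgeR).

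PDK4, on chromosome 14 (ENSCAFG00000002129, 20827831 to 20839256, reverse strand), is known as the kinase induced by fasting in muscle and heart. Here it was near the limit of measurement, with 39, 34 and 31 reads under hypoxia, against 31, 23 and 27 reads under normoxia. Its level was 0.67, 1.07 and 1.46 TPM under hypoxia, against 1.41, 0.70 and 0.97 TPM under normoxia. The groups overlapped in TPM. The log2 fold change was 0.27 ± 0.32 and did not pass the test (adjusted p = 0.525, edgeR), and its 95% interval, -0.39 to 0.93, leaves changes of either sign within reach of this depth.

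The kinases share a substrate, and their RNA levels were also added, which does not give their combined activity. The summed TPM of the 4 kinases was 479, 465 and 488 in the hypoxia libraries, against 195, 185 and 195 in the normoxia libraries, or 2.49 times as much by the group means. PDK1 made up 60.9% ± 0.99 of that sum under hypoxia and 17.8% ± 1.64 under normoxia (SD, n = 3 each). PDK2 held 23.8% to 26.4% under hypoxia and 57.6% to 59.9% under normoxia, although its own level hardly differed. PDK3 held 13.9% ± 0.31 under hypoxia and 23.0% ± 1.12 under normoxia, so its share was smaller under hypoxia while its level was higher. PDK4 was under 1% of the sum in every library. The most abundant kinase RNA was therefore PDK1 under hypoxia and PDK2 under normoxia, in each of the 3 libraries of the condition. These sums and shares follow from the genes chosen and are given without a test.

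**Figure D2:**
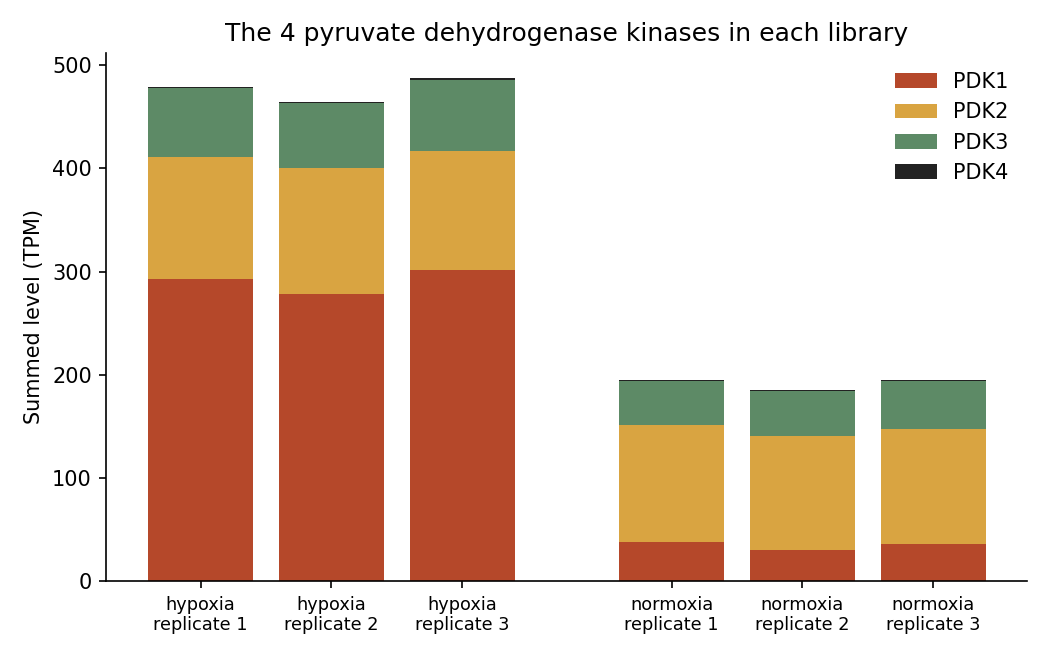
Summed level of the 4 kinases in TPM, stacked by gene, 1 bar per library, hypoxia libraries at the left. The sum is 465 to 488 TPM under hypoxia and 185 to 195 TPM under normoxia, and most of the difference lies in the PDK1 segment.

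The phosphatases act against the kinases. PDP1, the calcium-stimulated phosphatase (ENSCAFG00000009131, chromosome 29, 38782418 to 38789807, forward strand), was at 32.0, 35.5 and 36.0 TPM under hypoxia, against 29.3, 28.0 and 27.5 TPM under normoxia. All hypoxia libraries were above all normoxia libraries, with a log2 fold change of 0.28 ± 0.066 (adjusted p = 0.000615, edgeR). PDP2, the phosphatase that calcium does not stimulate, is annotated on chromosome 5 as a single exon (ENSCAFG00000020398, 82424978 to 82426573, reverse strand). It was at 30.4, 29.8 and 27.0 TPM under hypoxia, against 35.1, 33.5 and 32.2 TPM under normoxia. The groups did not overlap, yet the log2 fold change of -0.15 ± 0.070 did not pass the test (adjusted p = 0.0698, edgeR). It passed when libraries were scaled by size alone (-0.22, adjusted p = 0.00953, edgeR), in limma on log2(TPM + 1) (-0.20, adjusted p = 0.0327) and without normoxia replicate 3 (-0.19, adjusted p = 0.0473, edgeR). The summed level of both phosphatases was 62.4, 65.4 and 63.0 TPM under hypoxia, against 64.4, 61.4 and 59.7 TPM under normoxia. These sums overlapped between the conditions. The ratio of kinase to phosphatase RNA was 7.67, 7.11 and 7.74 under hypoxia, against 3.03, 3.01 and 3.26 under normoxia. Every hypoxia library was thus well above every normoxia library in this ratio. Within the pair, the ratio of PDP1 to PDP2 was 1.19 ± 0.14 under hypoxia and 0.84 ± 0.011 under normoxia, above 1 in every hypoxia library and below 1 in every normoxia library.

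PDHA1, the E1 subunit that the kinases phosphorylate (ENSCAFG00000013030, chromosome X, 15338202 to 15387458, forward strand), was lower under hypoxia. It was at 117, 111 and 123 TPM under hypoxia, against 147, 150.4 and 135 TPM under normoxia. No hypoxia library reached the lowest normoxia library, and the log2 fold change was -0.23 ± 0.040 (adjusted p = 9.11e-06, edgeR). The annotated gene overlaps MAP3K15 on the other strand, and the library kit does not mark strand. MAP3K15 had 397 reads over all libraries, against 16308 reads of PDHA1 under hypoxia and 18124 under normoxia. Of the PDHA1 intron reads 36.0% were not counted as unique, while its exon reads all were. Whether those intron reads were shared with the MAP3K15 model or mapped to several places was not tested. From exon reads the log2 change of PDHA1 was -0.27 ± 0.047 (adjusted p = 1.59e-05, edgeR). The ratio of PDK1 to PDHA1 in TPM was 2.49 ± 0.027 under hypoxia and 0.24 ± 0.036 under normoxia (SD, n = 3 each), so RNA of the kinase was the more abundant of the pair in the hypoxia libraries and the less abundant in the normoxia libraries.

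MPC2, a subunit of the carrier that admits pyruvate to the mitochondrial matrix (ENSCAFG00000015358, chromosome 7, 30545152 to 30574080, forward strand), was at 149, 152 and 148 TPM under hypoxia, against 179, 189 and 184 TPM under normoxia. The groups were well separated, with a log2 fold change of -0.27 ± 0.051 (adjusted p = 5.40e-05, edgeR). Its partner MPC1 was not analysed, so the change of the complete carrier is not known from these values.

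Ordered by mean TPM, the genes ran PDK1, MPC2, PDK2, PDHA1, PDK3, PDP1, PDP2 and PDK4 under hypoxia. The neighbours PDK2 and PDHA1 overlapped between libraries in that order, and no other neighbours did. Under normoxia the order was MPC2, PDHA1, PDK2, PDK3, PDK1, PDP2, PDP1 and PDK4, with an overlap of PDK1 and PDP2. PDK1 thus held the first place under hypoxia and the fifth under normoxia. CPM, which are reads scaled to a common library total and do not take account of length, did not overlap between the conditions for any of the 8 genes. This was so for 55.3% of all genes tested.

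Reads in exons mostly come from finished transcripts, and reads in introns from unspliced ones, so the files' split of reads by class gives a further view of each gene. For PDK1 the log2 change was 3.12 ± 0.059 from exon reads and 3.26 ± 0.11 from intron reads (adjusted p = 2.03e-20 and 1.58e-11, edgeR). For PDK3 it was 0.62 ± 0.060 from exon reads and 0.67 ± 0.12 from intron reads (adjusted p = 6.84e-11 and 2.67e-06, edgeR). Both kinases were thus higher in either class, by a similar amount. PDHA1 was lower in either class too, by -0.17 ± 0.051 from intron reads (adjusted p = 0.00554, edgeR). For PDP1 the log2 change was 0.32 ± 0.071 from exon reads and passed the test (adjusted p = 0.000278, edgeR), and from intron reads it was 0.14 ± 0.15 and did not (adjusted p = 0.487, edgeR). MPC2 likewise passed from exon reads (-0.27, adjusted p = 6.76e-05, edgeR) and not from intron reads (-0.21 ± 0.13, adjusted p = 0.214, edgeR). PDK2 passed from exon reads (0.12, adjusted p = 0.0295, edgeR) and not from intron reads (0.18, adjusted p = 0.116, edgeR), and PDK4 and PDP2 passed in neither class. The difference between classes was not tested. From exon reads 4 of the 8 genes were called higher and 2 lower, beside 24.4% higher and 23.8% lower among all genes tested, 48.2% in all. From intron reads 2 were called higher and 1 lower, beside 18.7% higher and 15.7% lower among all genes tested, 34.4% in all. The intron class is not purely intronic: of 2335 genes annotated with a single exon and having reads, 1154 also had reads counted as intron, among them PDP2 with 98 to 114 per library.

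**Figure D3:**
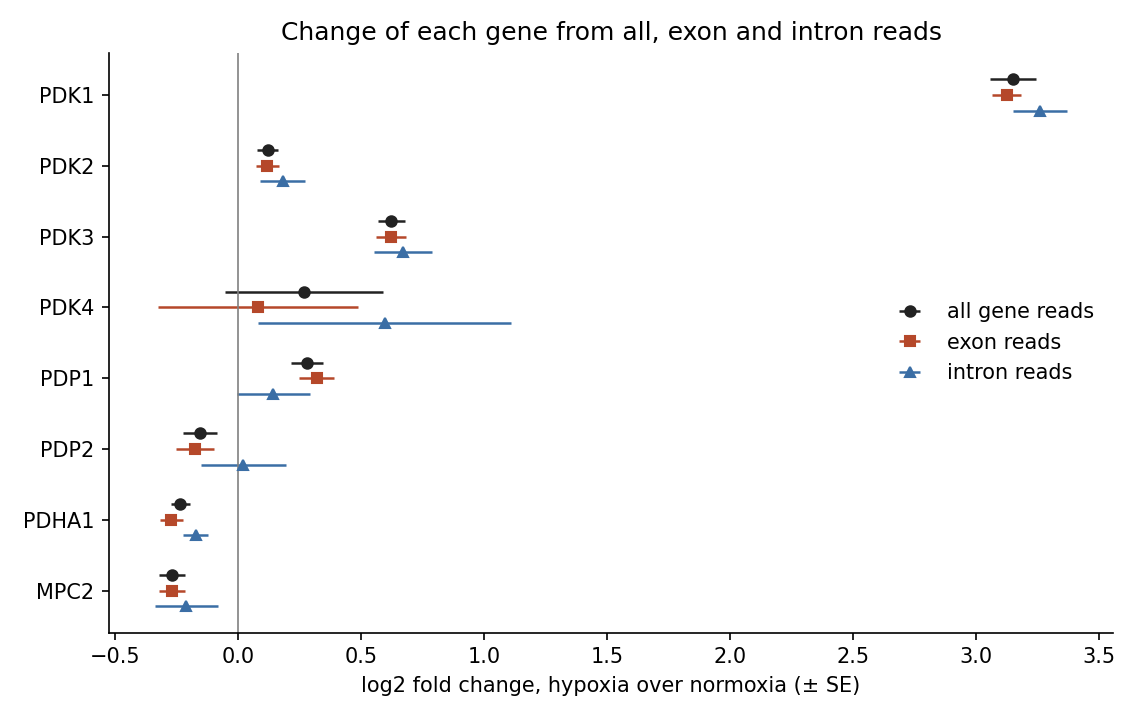
Log2 fold change of hypoxia over normoxia for each measured gene, from all gene reads, exon reads and intron reads. Bars are standard errors. PDK1 lies above 3 in all 3 classes of read, PDK3 between 0.6 and 0.7, and PDK4 has the widest bars, from the fewest reads.

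The other parts of the complex moved in both directions, with log2 changes from -0.27 to 0.13. Of 4 further genes with a symbol 1 was called higher and 2 lower, with a median log2 change of -0.11. DLD, the E3 enzyme that reoxidizes the lipoyl arm, was at 83.8 ± 1.87 TPM under hypoxia and 105 ± 6.89 TPM under normoxia (-0.27 ± 0.040, adjusted p = 1.15e-06, edgeR, n = 3 each). PDHX, which tethers E3 to the core, was at 23.4 ± 1.39 TPM under hypoxia and 30.6 ± 3.21 TPM under normoxia (-0.25 ± 0.062, adjusted p = 0.00105, edgeR, n = 3 each). DLD and PDHX thus lay lower by about as much as PDHA1 and MPC2. From exon reads both passed, DLD at -0.28 and PDHX at -0.35 (adjusted p = 5.67e-07 and 0.000365, edgeR). From intron reads neither DLD (-0.024, adjusted p = 0.900, edgeR) nor PDHX (-0.091, adjusted p = 0.487, edgeR) passed. The PDHX model overlaps APIP, so its value may hold reads of that gene. DLAT, the E2 core enzyme that makes acetyl-CoA, was called higher from all gene reads (0.13 ± 0.044, adjusted p = 0.0152, edgeR). Its TPM overlapped between conditions, at 55.9 ± 0.65 under hypoxia and 54.6 ± 1.74 under normoxia, and it did not pass from exon reads (0.068, adjusted p = 0.265, edgeR) or without normoxia replicate 2 (0.12, adjusted p = 0.0599, edgeR). It also did not pass when libraries were scaled by size alone (0.062, adjusted p = 0.243, edgeR) or in limma on log2(TPM + 1) (0.033, adjusted p = 0.586). From intron reads DLAT did pass (0.37 ± 0.084, adjusted p = 0.000274, edgeR). PDPR, the regulatory subunit of the phosphatase, was at 0.028 ± 0.056 and did not pass (adjusted p = 0.716, edgeR).

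Lists of related genes were drawn up from general knowledge of the pathway. Together with the 4 genes above, they hold 56 names, of which 48 had a symbol match and 45 passed the count filter, and 13 of these were called higher and 13 lower. The 57.8% called is near the 49% of all genes. The counts of each single list are to be read beside the 24.5% called higher and 24.4% called lower among all genes tested. The median log2 change was -0.032.

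**Figure D4:**
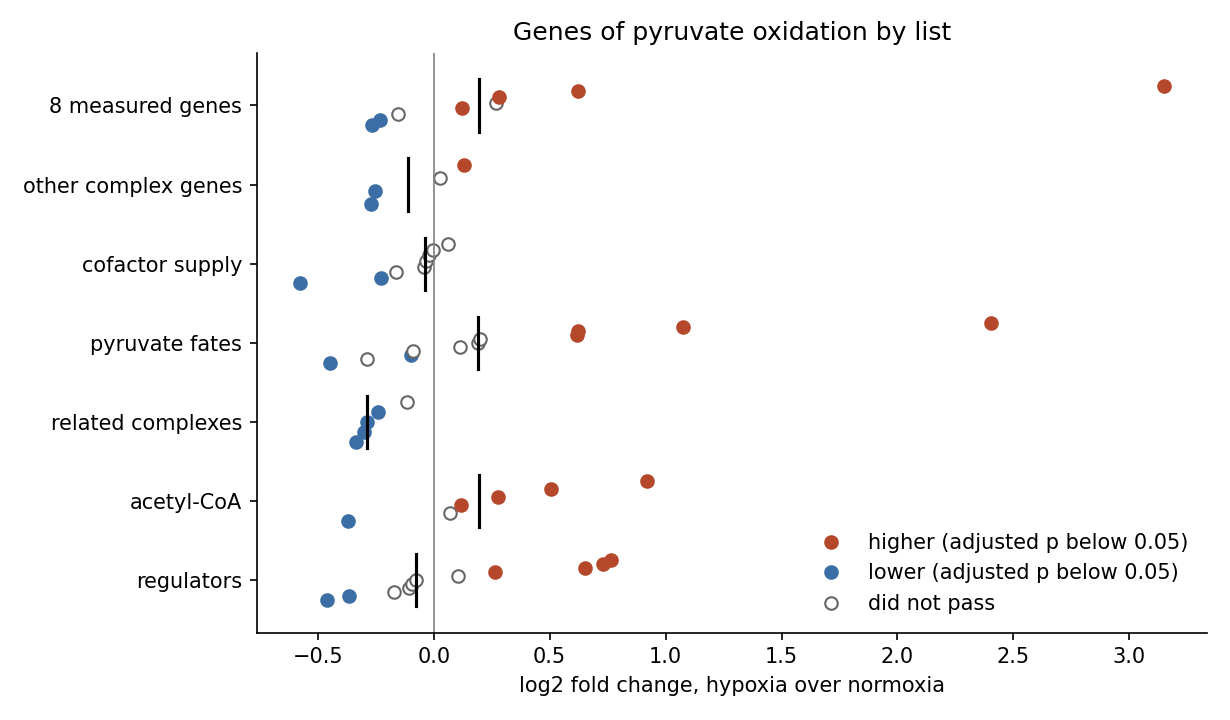
Log2 fold change of hypoxia over normoxia for each tested gene, grouped by list. Filled points passed edgeR's test at an adjusted p below 0.05, open points did not, and black lines are list medians. PDK1 at 3.15 and SLC16A3 at 2.41 lie far to the right of all others.

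Other fates of pyruvate showed the next largest change. Of 11 tested genes 4 were called higher and 2 lower, with a median of 0.19. SLC16A3, the lactate exporter MCT4, was at 228 ± 12.4 TPM under hypoxia and 43.6 ± 1.66 TPM under normoxia (log2 change 2.41 ± 0.047, adjusted p = 1.12e-28, edgeR, n = 3 each). SLC16A1, the monocarboxylate transporter MCT1, was at 82.8 ± 4.94 TPM under hypoxia and 55.1 ± 0.50 TPM under normoxia (0.62 ± 0.037). LDHB, the lactate dehydrogenase chain of heart-type enzyme, was at 491 ± 11.4 TPM under hypoxia and 679 ± 11.2 TPM under normoxia (-0.45 ± 0.035), with 23.2% of its reads mapping to more than 1 place. These MCT4 and MCT1 genes were thus higher and LDHB lower, while SLC16A7, the related transporter MCT2, named after its values were seen, was at 0.19 ± 0.16 and did not pass (adjusted p = 0.347, edgeR). PKLR, the pyruvate kinase of liver and red cells, was called higher at 0.23 TPM under hypoxia and 0.14 TPM under normoxia (1.07 ± 0.42, adjusted p = 0.0339, edgeR) but not by DESeq2 (adjusted p = 0.0944). It was 0.70 without normoxia replicate 2 (adjusted p = 0.214, edgeR), and the call was also lost without hypoxia replicate 2 (0.89), hypoxia replicate 3 (0.98) or normoxia replicate 1 (1.22). The malic enzyme ME3, named after its values were seen, rose by 0.62 ± 0.13. ME1, the cytosolic malic enzyme, was called lower at -0.098 (adjusted p = 0.0490, edgeR) and lost the call by DESeq2 (adjusted p = 0.0739), from exon reads (adjusted p = 0.235, edgeR) and without any 1 of the libraries other than hypoxia replicate 3 (-0.11 to -0.055). Pyruvate carboxylase, PC, which makes oxaloacetate from pyruvate, did not pass (0.12 ± 0.059, adjusted p = 0.110, edgeR). LDHA, PKM and GPT2 matched no symbol.

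The complex needs thiamine pyrophosphate and lipoic acid as cofactors. Of 8 tested genes of their supply 2 were called lower and 0 higher, by edgeR and by DESeq2 alike, and 0 were higher at an unadjusted p below 0.05. SLC19A2, a thiamine transporter of the cell surface, was at 12.9 ± 1.01 TPM under hypoxia and 16.5 ± 2.13 TPM under normoxia (-0.23 ± 0.075). The call of SLC19A2 was lost without hypoxia replicate 2 (-0.19, adjusted p = 0.0740, edgeR) and without normoxia replicate 3 (-0.15, adjusted p = 0.115, edgeR).

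Most tested genes of related mitochondrial dehydrogenases and their regulators were lower by a similar amount. OGDH and BCKDHA matched no symbol, and the phosphatase PPM1K did not pass (-0.11 ± 0.091, adjusted p = 0.321, edgeR). Of 5 tested genes 4 were called lower and 0 higher, by edgeR and by DESeq2 alike, and 0 were higher at an unadjusted p below 0.05. The median was -0.29. BCKDK, the kinase that switches off branched-chain keto acid dehydrogenase and is a relative of the PDK kinases, was at 39.0 ± 2.38 TPM under hypoxia and 49.7 ± 0.53 TPM under normoxia (-0.34 ± 0.058, adjusted p = 1.16e-05, edgeR, n = 3 each). This kinase thus lay in the opposite direction to PDK1 and PDK3. DLST, the E2 enzyme of 2-oxoglutarate dehydrogenase, fell by 0.30. Of its reads 38.1% were not counted as unique, made up of 81.6% of its intron reads and 0% of its exon reads. Of the branched-chain complex genes, DBT fell by 0.29 and BCKDHB by 0.24.

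Genes that make or use acetyl-CoA were called higher in 4 of 6 cases and lower in 1, with a median of 0.20. Citrate synthase, CS, which takes mitochondrial acetyl-CoA into the TCA cycle, was at 204 ± 8.68 TPM under hypoxia and 269 ± 6.90 TPM under normoxia (-0.37 ± 0.036, adjusted p = 2.85e-10, edgeR, n = 3 each). ACSS2, which makes acetyl-CoA from acetate outside mitochondria, was at 172 ± 5.21 TPM under hypoxia and 93.8 ± 4.95 TPM under normoxia (0.92 ± 0.042, adjusted p = 3.52e-18, edgeR, n = 3 each). The ACSS2 model lies within the GSS model, and 20.7% of its reads were not counted as unique. These were 100% of its intron reads and 0% of its exon reads. From exon reads the log2 change of ACSS2 was 0.91 ± 0.042 (adjusted p = 1.09e-19, edgeR). ATP citrate lyase, ACLY, which makes cytosolic acetyl-CoA from citrate, rose by 0.51 ± 0.034. The mitochondrial acetate enzyme ACSS1 rose by 0.28. The citrate carrier SLC25A1 was called higher from all gene reads (0.12 ± 0.039, adjusted p = 0.0139, edgeR) and from exon reads (0.14, adjusted p = 0.00751, edgeR). Its TPM overlapped between conditions, at 212 ± 7.39 under hypoxia and 198 ± 9.44 under normoxia.

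Transcription factors known in mammals to act on PDK genes moved in both directions, 4 of 11 tested higher and 2 lower, with a median of -0.078. The glucocorticoid receptor NR3C1, a known activator of PDK4, was at 75.5 ± 3.38 TPM under hypoxia and 45.1 ± 1.43 TPM under normoxia (0.76 ± 0.037, adjusted p = 1.57e-17, edgeR, n = 3 each). FOXO3 rose by 0.65 ± 0.044 and the HIF-2 subunit EPAS1 by 0.73 ± 0.096. ESRRA, the estrogen-related receptor of mitochondrial genes, fell by 0.46 and the lipid-sensing receptor PPARG by 0.37. HIF1A, the oxygen-regulated subunit of HIF-1, was called higher from all gene reads (0.26 ± 0.036) but was at 154 ± 7.35 TPM under hypoxia and 153 ± 5.63 TPM under normoxia, and from exon reads it did not pass (0.043, adjusted p = 0.351, edgeR). From intron reads HIF1A rose by 2.44 ± 0.074 (adjusted p = 2.48e-40, edgeR), with intron reads making up 18.2% of its reads under hypoxia and 4.05% under normoxia. The library kit does not mark strand, so the strand from which these intron reads came is not known.

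The genes with the profile most like that of PDK1 were sought among 11625 other named genes averaging 1 CPM or more, by the Euclidean distance between log2 CPM values centred on each gene's mean over the 6 libraries. The nearest were ALDOC (distance 0.19), SLC2A3 (0.22), ASB9 (0.44), EGLN3 (0.44) and STC1 (0.46). Their log2 changes were 3.14 for ALDOC, 3.08 for SLC2A3, 3.25 for ASB9, 3.50 for EGLN3 and 3.32 for STC1. A small distance requires a change near that of PDK1, so the likeness of these changes follows from the choice. For MPC2, the measured gene with the largest fall, the nearest were C20orf27, PPL, TRIM27, PSMD4 and SLC25A11, at distances of 0.033 to 0.045. With changes of the size of MPC2 many genes lie close, so this order says less than that of PDK1.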

How the data were processed

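The 10 genes, the related lists and the tests were chosen with earlier results of these data known. Per the labels' protocols, RNA was selected with oligo-dT beads and sequenced paired-end on an Illumina NextSeq from libraries made with the NEBNext Ultra II RNA kit, which does not mark strand. Genes were those of CanFam3.1, per the submitters' processing notes. The sources used here do not give the aligner or the counting tool. Read counts were deposited for each gene as totals and as unique reads, with separate columns for exons, exon junctions and introns, as named in the header lines. Reads not counted as unique may include reads shared by overlapping gene models. TPM was deposited by the authors in its own column and equals their expression value, and it depends on the annotated exon length. RPKM was also deposited by the authors and was not used.

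Total gene reads were filtered with filterByExpr by group, scaled by TMM and tested with glmQLFit (robust) and glmQLFTest in edgeR 4.0.16 (R 4.3.3, limma 3.58.1, DESeq2 1.42.0). CPM used the TMM-scaled library sizes. Standard errors are the log2 change over the square root of the F statistic. Alternatives were other scalings, filters, tools, read classes, limma on log2(TPM + 1), the replicate number as a block and leaving out each library. Genes beyond the 10 were named by a rule: all complex genes, up to 3 called rises and falls of each further list, and SLC16A1, SLC16A3, LDHA, LDHB, PC, BCKDK, HIF1A and EPAS1. ME3, SLC16A7, BCKDHB, PPM1K and SLC25A1 were named in addition after their values were seen, to complete small counts or groups. Figures were drawn with matplotlib 3.10.9. No sequence was used. Replicates were compared by a chi-square test of their counts. The statistic was 4.29 to 13.7 times its degrees of freedom, so no pair agreed within sampling noise as 1 library deposited more than once would, and each library was counted as 1 sample. This does not show that they came from separate cultures. The values of 1 gene included in the counts are not reported here.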

Additional observations from a re-analysis of the deposited data

How the results depend on the processing

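Of the 120 recomputed log2 changes of the 8 measured genes, 109 kept their direction and their side of the threshold, 7 lost a call, 3 gained one and 1 changed sign. PDK1 (3.04 to 3.26), PDK3 and PDHA1 kept their calls under every alternative run. The call of PDK2 was lost with library size as the only scaling (0.056), in limma on log2(TPM + 1) (0.084), from intron reads (0.18) and without either of the libraries named above, with 0.10 to 0.13 over the fits that left out 1 library. PDP2 gained a call with library size as the only scaling (-0.22) and in limma on log2(TPM + 1) (-0.20), lay between -0.19 and -0.12 when a library was left out, and was at 0.022 from intron reads, where its single annotated exon leaves no intron to count. From intron reads PDP1 (0.14) and MPC2 (-0.21) lost their calls, the measured genes called were 2 higher and 1 lower, and 2173 of all genes were lower. The cause was not tested.

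PDPR, never called, was at -0.038 with library size as the only scaling, at -0.00037 in limma on log2(TPM + 1), and between -0.010 and 0.066 when a library was left out. Of 374 recomputed values of 25 other genes, 31 lost a call and the 4 that changed sign were those of PDPR. From uniquely mapped exon reads the PDK1 share of the kinases under hypoxia was 59.3%. Correlations of deviations from the group means were -0.085 to 0.026 for libraries of equal replicate number and -0.088 to 0.13 for the others. With 3 libraries per group these values cannot show whether the libraries were paired. With the replicate block 3769 genes were higher and 3793 lower, with 4 and 2 of the measured genes. With that block PDK1 was at 3.15. Depth limits PDK4 most, with 23 to 39 reads per library.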
